A study of Zea mays with 6 samples.

Results

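In leaves of the maize inbred line W22 and of its mutant edf1-D, 56 of 44303 annotated genes were listed in only 1 of the genotypes. A gene was taken when the values of its transcripts summed to exactly 0 in all 3 libraries of one genotype and to at least 1 FPKM (fragments per kilobase of transcript, scaled to the fragments of the library) in all 3 libraries of the other. By this rule 29 genes were listed only in edf1-D and 27 only in wild type (WT). The 56 genes were thus chosen by their levels in these 6 libraries, and their levels are given as a description, without a test.

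The 3 WT libraries came from W22 plants and the 3 edf1-D libraries from plants of the mutant in the same background, whose genotype the labels write as edf1-D and whose sample titles write edf-D. The suffix D marks a dominant allele by maize convention. Both genotypes stood in a field in spring, and leaves were taken 25 days after germination. The labels name no transgene or treatment. Separate plants and pools are not distinguished in them, so that p-values reflect nothing beyond library-to-library spread, which could be technical.

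Maize inbred lines are known to differ in the genes they carry as well as in the genes they express. RNA sequencing counts reads only against the gene models it is given, and here these are models of B73, another inbred line, although the plants were W22. A value of 0 therefore says that the level assigned to that B73 model was 0 at the 2 decimals given. It does not say that the plant lacked the gene or its transcript. The deposited files leave the gene name empty for every ID and none of the IDs was matched in the RefSeq table used here, so that the 56 genes are given by ID, without names, functions or sequences, and the leaf identity of the samples could not be checked against marker genes.

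The libraries differed in how many genes they listed. Values above 0 were given for 24187 genes in edf1-D replicate 3, the fewest, and for 25397 in WT replicate 2, the most. All 3 WT libraries were at 0 for 15845 genes and all 3 edf1-D libraries for 16333, and 13850 genes were at 0 in all 6. Among the genes at 0 throughout WT, 159 were above 0 in every edf1-D library. Among those at 0 throughout edf1-D, 231 were above 0 in every WT library. The 29 and 27 listed genes are those of the 159 and 231 that reached 1 FPKM in every library. The depth of the libraries is unknown, and a transcript below detection is listed at 0 as well. In whole leaves, fewer cells of a type and less RNA per cell cannot be told apart.

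Most listed genes were low, and the 4 most abundant were listed only in edf1-D. The mean over the expressing libraries had a median of 2.55 FPKM over the 29 genes listed only in edf1-D, with quartiles at 1.60 and 6.39 FPKM, and of 3.16 FPKM over the 27 genes listed only in WT, with quartiles at 1.97 and 5.75 FPKM. A mean under 2 FPKM was held by 11 of the 29 and 8 of the 27 genes. A mean of 20 FPKM or more was held by 4 genes listed only in edf1-D and by 0 listed only in WT. The 29 genes together summed to between 207.9 and 271.2 FPKM in an edf1-D library, and the 27 genes to between 100.1 and 162.2 FPKM in a WT library. This was at most 0.0451% of a library's FPKM.

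**Figure D1:**
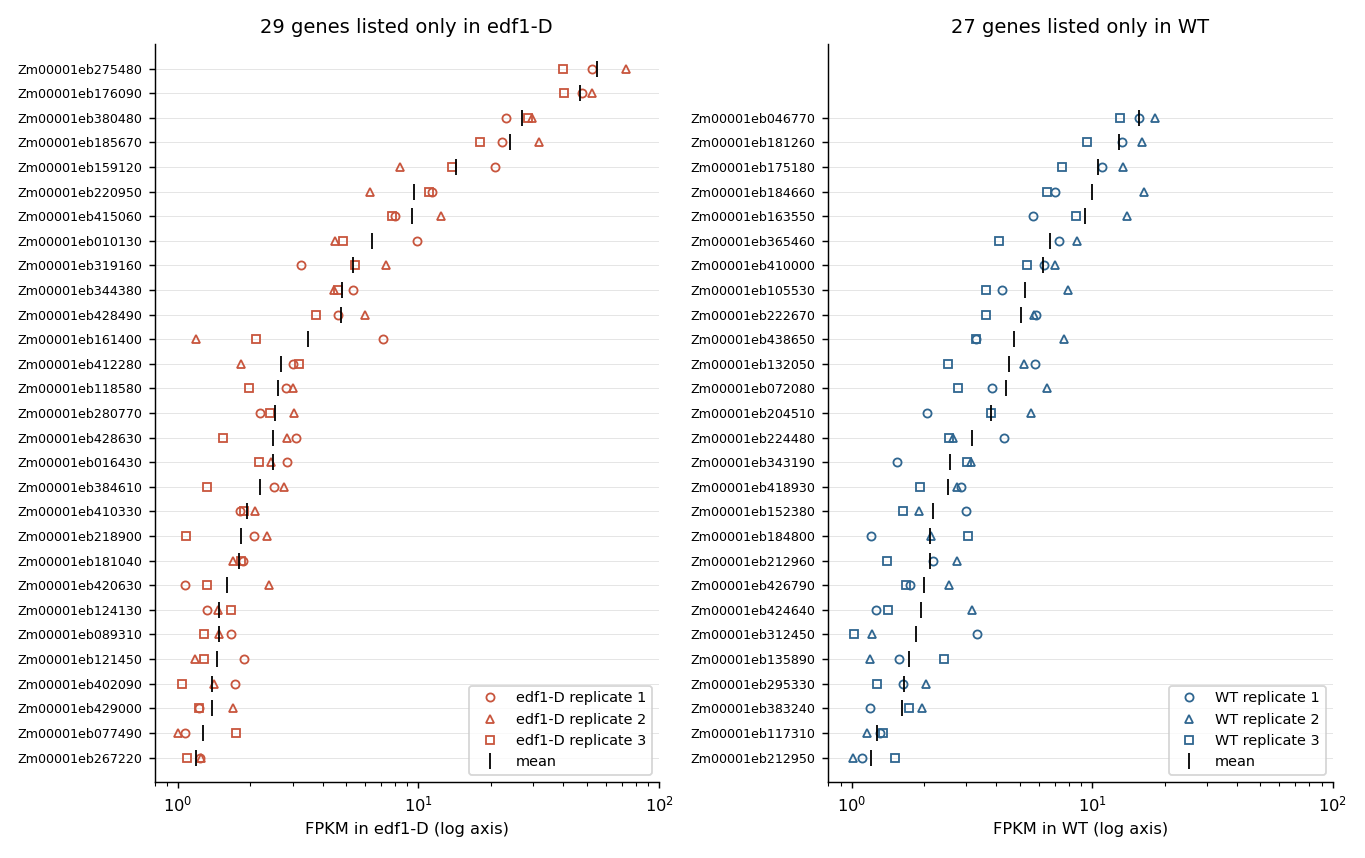
Level of each of the 56 listed genes in the 3 libraries of the genotype that lists it, on a log axis of FPKM, with 1 row per gene ordered by mean (vertical tick) and 1 symbol per replicate; all 3 libraries of the other genotype are at 0. The genes listed only in edf1-D run from a mean of 1.19 to 55.2 FPKM and those listed only in WT from 1.21 to 15.7 FPKM.

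The most abundant gene listed only in edf1-D was Zm00001eb275480, at 52.46, 73.19 and 39.88 FPKM in replicates 1, 2 and 3, a mean of 55.2 ± 16.8 FPKM (SD, n = 3). It has 1 annotated transcript. Zm00001eb176090 followed at 47.72, 52.43 and 40.10 FPKM, a mean of 46.8 ± 6.22 FPKM (SD, n = 3). In both genes replicate 2 was the highest and replicate 3 the lowest library. Zm00001eb380480 stood at 23.03, 29.55 and 28.42 FPKM, with a coefficient of variation of 12.9%, and here replicate 1 was the lowest. Zm00001eb185670 stood at 22.25, 31.58 and 18.04 FPKM. These 4 genes were the only listed genes of either direction with a mean of 20 FPKM or more. The next, Zm00001eb159120, had a mean of 14.3 FPKM, and its libraries overlapped with those of Zm00001eb185670.

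Zm00001eb159120 was at 20.75, 8.35 and 13.75 FPKM, with a coefficient of variation of 43.5%, higher than those of the genes above it. Zm00001eb220950 was at 11.42, 6.32 and 11.05 FPKM, again lowest in replicate 2. Zm00001eb415060 was at 8.02, 12.37 and 7.74 FPKM and was highest in replicate 2. Zm00001eb010130 was at 9.83, 4.49 and 4.85 FPKM, with replicate 1 apart from the others. The order of replicates was thus not shared by these genes. The other 21 genes of this direction had means between 1.19 FPKM (Zm00001eb267220) and 5.35 FPKM (Zm00001eb319160).

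The most abundant gene listed only in WT was Zm00001eb046770, at 15.65, 18.30 and 13.03 FPKM in WT replicates 1, 2 and 3, a mean of 15.7 ± 2.64 FPKM (SD, n = 3). Zm00001eb181260 stood at 13.27, 16.17 and 9.48 FPKM. Zm00001eb175180 stood at 10.95, 13.42 and 7.47 FPKM. All 3 genes were highest in replicate 2 and lowest in replicate 3. Zm00001eb184660 was at 7.02, 16.40 and 6.50 FPKM, where replicate 2 lay far above the other libraries. Zm00001eb163550 was at 5.67, 13.94 and 8.54 FPKM, with replicate 2 again the highest and replicate 1 the lowest.

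Zm00001eb365460 was at 7.30, 8.62 and 4.12 FPKM. Zm00001eb410000 was at 6.29, 7.04 and 5.35 FPKM and varied least of these, with a coefficient of variation of 13.6%. Zm00001eb105530 was at 4.22, 7.97 and 3.63 FPKM. WT replicate 2 was the highest library for all 3. The other 19 genes of this direction had means between 1.21 FPKM (Zm00001eb212950) and 5.08 FPKM (Zm00001eb222670).

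The spread between replicates was compared with that of other expressed genes. The coefficient of variation of the listed genes had a median of 26.3% (range 4.73% to 92.1%) over the 29 genes in edf1-D and of 33.0% (range 7.87% to 68.9%) over the 27 genes in WT. Among other genes with at least 1 FPKM in every library of the same genotype, and a mean within the range of the listed genes, the medians were 17.8% over 12519 genes in edf1-D and 22.1% over 9759 genes in WT. Within that range, these genes were not matched to the listed genes in level. Before the limit to that range, the other expressed genes had median levels of 8.18 FPKM over 14111 genes in edf1-D and 8.51 FPKM over 14644 in WT. The highest library exceeded the lowest by more than 3 times in 1 gene of each direction. In edf1-D this was Zm00001eb161400, at 7.15, 1.19 and 2.11 FPKM. In WT it was Zm00001eb312450, at 3.33, 1.22 and 1.02 FPKM. Replicate 1 was the high library in both, which were chosen here for their spread after their values were seen.

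The highest and lowest values were spread unevenly over the replicates in the listed genes and also in the other expressed genes. WT replicate 2 was the highest library for 17 of the 27 genes and WT replicate 3 the lowest for 17. Among the other 14644 genes with at least 1 FPKM in every WT library, replicate 2 was highest in 63.7% and replicate 3 lowest in 71.7%. In edf1-D, replicate 2 was highest for 15 of the 29 genes and replicate 3 lowest for 14. Both are smaller shares than the 65.0% and 74.2% of the other 14111 genes. The part of library scaling in the levels of the listed genes was not tested.

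Values of 0 throughout the other genotype were most frequent among low genes. Of 14140 genes with at least 1 FPKM in every edf1-D library, 0.205% were listed at 0 throughout WT, and of 14671 such genes in WT, 0.184% were listed at 0 throughout edf1-D. Where the lowest library lay between 1 and 2 FPKM, the shares were 0.690% (16 of 2320 genes) and 0.538% (13 of 2415). Between 10 and 20 FPKM they were 0.0451% (1 of 2216) and 0.0416% (1 of 2405). At 20 FPKM or more, 3 of 3238 genes (0.0926%) were listed only in edf1-D and 0 of 3246 only in WT. These small counts were not tested.

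**Figure D2:**
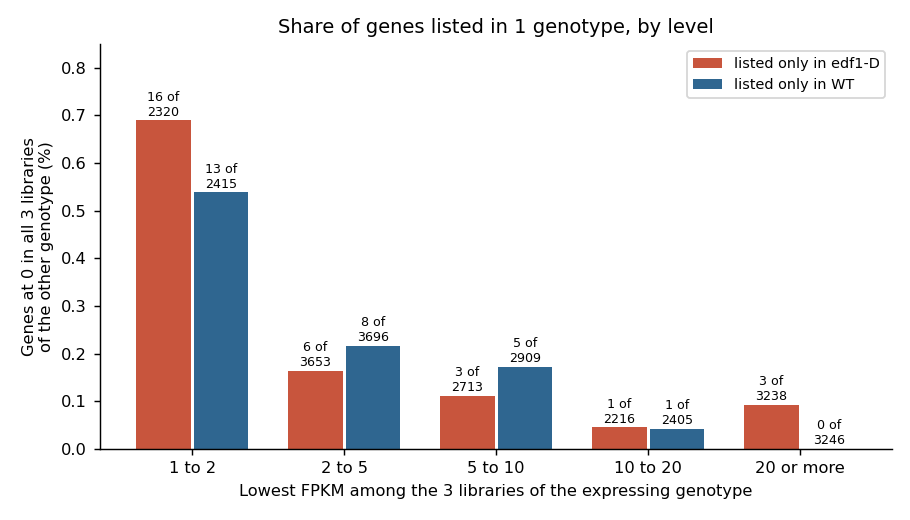
Percentage of genes at 0 in all 3 libraries of the other genotype, in classes of the lowest FPKM among the 3 libraries of the expressing genotype; the numbers over the bars are listed genes of all genes in the class. The share falls from 0.690% and 0.538% in the lowest class to 0.0451% and 0.0416% between 10 and 20 FPKM, and is 0.0926% and 0 above that.

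At the minimum, members and their nearest outsiders hardly differed in level. Just inside in edf1-D were Zm00001eb077490, at 1.07, 1.0 and 1.75 FPKM, and Zm00001eb402090, at 1.73, 1.41 and 1.04 FPKM. Just outside were Zm00001eb024120, at 2.47, 3.03 and 0.96 FPKM, and Zm00001eb159130, at 1.16, 2.13 and 0.94 FPKM, both at 0 throughout WT. In WT, Zm00001eb212950 (1.10, 1.01 and 1.52 FPKM) and Zm00001eb312450 were just inside, while Zm00001eb260290, at 0.99, 1.21 and 0.90 FPKM, and Zm00001eb087270, at 0.89, 1.66 and 1.21 FPKM, were just outside. The first outsider in edf1-D thus had a higher mean than either insider.

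Traces in the other genotype kept out more genes in the WT direction than in the edf1-D direction. Allowing up to 0.1 FPKM there added 1 gene in the edf1-D direction, Zm00001eb430270, at 0.04, 0.10 and 0 FPKM in WT and 5.10, 3.41 and 4.29 FPKM in edf1-D. It added 10 genes in the WT direction. The highest of these was Zm00001eb422670, at 6.57, 5.94 and 4.61 FPKM in WT and 0, 0.07 and 0.09 FPKM in edf1-D. Next was Zm00001eb359320, at 5.03, 5.81 and 4.41 FPKM in WT and at 0.02, 0.03 and 0.01 FPKM in edf1-D, a gene that no edf1-D library listed at 0.

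Each library was also left out in turn, the rule was asked of the other 5, and the value in the left-out library was read. For the edf1-D direction, 43 genes met the rule without WT replicate 1, of which 29 (67.4%) were at 0 there, 7 lay above 0 and under 1 FPKM, and 7 were at 1 FPKM or more. Without WT replicate 2, 29 of 35 (82.9%) were at 0 in it, and without WT replicate 3, 29 of 34 (85.3%). On the expressing side, 29 of 38 genes (76.3%) reached 1 FPKM in the left-out edf1-D replicate 1, 29 of 33 (87.9%) in replicate 2 and 29 of 39 (74.4%) in replicate 3.

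For the WT direction the shares ran from 64.3% to 79.4%. The left-out edf1-D library was at 0 for 27 of 42 genes (64.3%) in replicate 1, 27 of 39 (69.2%) in replicate 2 and 27 of 36 (75.0%) in replicate 3. The left-out WT library reached 1 FPKM for 27 of 40 genes (67.5%) in replicate 1, 27 of 34 (79.4%) in replicate 2 and 27 of 35 (77.1%) in replicate 3. Without edf1-D replicate 1 the 27 genes thus became 42, the only left-out library that moved either count by more than 1.5 times.

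Some genes that missed the rule through 1 library did so at high levels. These were chosen after their values were seen. Zm00001eb382460 was at 625.94, 516.23 and 510.85 FPKM in edf1-D and was kept out by 0.48 FPKM in WT replicate 2, with 0 in WT replicates 1 and 3. Zm00001eb417370 was at 62.64, 60.08 and 49.27 FPKM in edf1-D and had 0.58 FPKM in WT replicate 1 only. Zm00001eb173510 was listed at 0 in edf1-D replicates 1 and 3 but at 318.46 FPKM in edf1-D replicate 2, against 5.78, 26.97 and 2.38 FPKM in WT.

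Listed genes had fewer annotated transcripts than other expressed genes. A single transcript was annotated for 22 of the 29 genes listed only in edf1-D (75.9%) and for 22 of the 27 listed only in WT (81.5%). Among the other genes with at least 1 FPKM in every library of the same genotype the shares were 38.9% and 38.8%, and among all annotated genes 65.4%. At least 3 transcripts were annotated for 2 of the 29 and 1 of the 27 genes, against 37.2% and 37.4% of the other expressed genes. The rule was set on the sum over a gene's transcripts, and any transcript listed in the other genotype kept its gene out. The shares are thus not independent of the rule. The other expressed genes were not matched in level either. Their median levels were 8.18 FPKM in edf1-D and 8.51 FPKM in WT, against 2.55 and 3.16 FPKM for the listed genes. The shares were not tested, since genes are not replicates of a condition.

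Where several transcripts were annotated, 1 of them carried most of the value. In 6 of the 7 such genes listed only in edf1-D, 1 transcript was above 0 and held the whole sum. Zm00001eb218900 has 6 annotated transcripts, of which the second stood at 2.07, 2.34 and 1.08 FPKM and the other 5 at 0. The exception was Zm00001eb181040, with 3 annotated transcripts, whose second stood at 1.85, 1.11 and 1.69 FPKM and held 86.3% of the sum, while its first was at 0.01, 0.59 and 0.14 FPKM. The gene total, at 1.86, 1.70 and 1.83 FPKM, varied less than either, with a coefficient of variation of 4.73%, the lowest of the 56 genes.

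In WT, 4 of the 5 listed genes with several transcripts had more than 1 above 0. Zm00001eb046770 divided its sum into 80.6% and 19.4%, with both transcripts above 0 in all 3 libraries. Zm00001eb175180 divided it into 88.0% and 12.0%. Zm00001eb212950 has 5 annotated transcripts, and its second, at 0.77, 1.01 and 0.73 FPKM, held 69.1% of the sum. This gene was the only one of the 56 in which no transcript alone met the rule. Assigning short reads to transcripts of 1 gene is less certain than the gene total.

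Transcripts could also be listed in 1 genotype while their gene was listed in both. By the same rule applied to single transcripts, 51 transcripts were listed only in edf1-D, of which 29 belonged to the 29 listed genes and 22 to other genes. Of these 22, 16 belonged to genes with at least 1 FPKM in every WT library. In the WT direction there were 62, of which 27 belonged to listed genes and 35 to others, 22 of them in genes with at least 1 FPKM in every edf1-D library.

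A second identifier in the files was shared unevenly as well. The description column pairs every gene with an ID that begins with Zm00001e, whose numbers form 2 series: 34516 genes have numbers from 1 to 42520 and 9787 genes have numbers from 100003 to 160175. No label or header says what the series mark. Genes of the higher series had 1 transcript in 93.6% of cases and were at 0 in all 6 libraries in 69.8%, against 57.4% and 20.3% in the lower series.

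The higher series held 9 of the 29 genes listed only in edf1-D (31.0%) and 8 of the 27 listed only in WT (29.6%). It held 22.1% of all 44303 annotated genes and 4.68% of the 18719 tested genes, which reached 0.5 FPKM in 3 libraries or more. Of the other genes with at least 1 FPKM in every edf1-D or every WT library it held 3.17% and 3.08%. The shares differed among genes with 1 transcript too, and were 9 of 22 (40.9%) and 8 of 22 (36.4%) of the listed genes, against 7.15% and 6.77% of other such genes within the same range of means. Seen from the series, 1.97% of its 456 genes with at least 1 FPKM throughout edf1-D were at 0 throughout WT, and 0.146% of the 13684 genes of the lower series. In the WT direction these shares were 1.74% of 459 and 0.134% of 14212 genes. The other expressed genes were not matched to the listed genes in level, and none of these shares was tested.

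Listed genes of the higher series spanned abundant and low levels. Their means had a median of 5.35 FPKM in edf1-D and 4.79 FPKM in WT, against 2.52 and 2.13 FPKM for listed genes of the lower series. The most abundant gene listed only in edf1-D, Zm00001eb275480, belongs to the higher series, as do Zm00001eb380480, Zm00001eb159120 and Zm00001eb415060. So do 4 edf1-D genes below that direction's median of 2.55 FPKM, Zm00001eb016430 (a mean of 2.48 FPKM), Zm00001eb124130 (1.48 FPKM), Zm00001eb089310 (1.48 FPKM) and Zm00001eb121450 (1.45 FPKM), which were picked out after their values were seen. In WT, Zm00001eb163550, Zm00001eb365460 and Zm00001eb105530 belong to it.

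**Figure D3:**
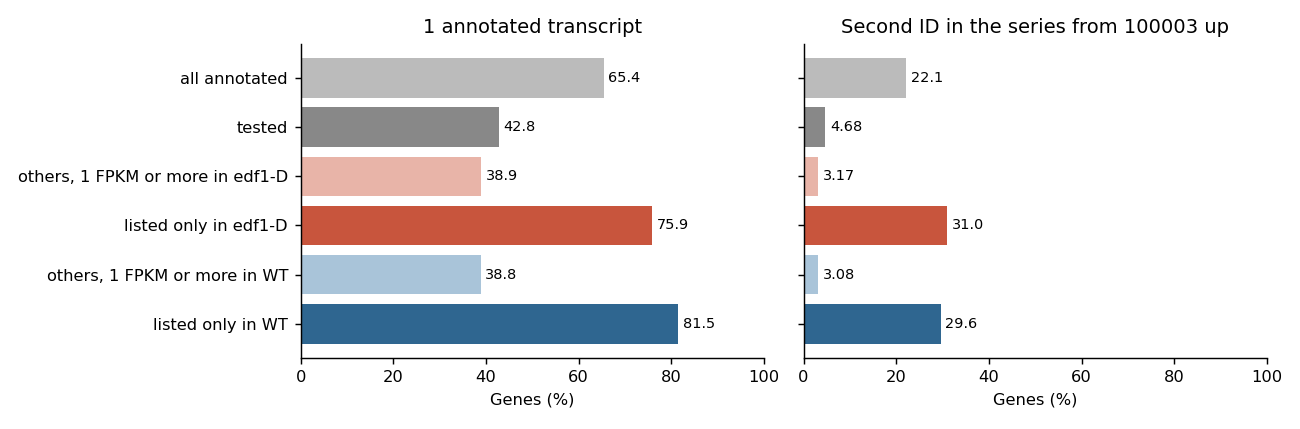
Percentage of genes with 1 annotated transcript (left) and of genes whose second ID is in the series from 100003 up (right), for all 44303 annotated genes, the 18719 tested genes, the other genes at 1 FPKM or more in every library of a genotype, and the listed genes. Both shares are higher in the 29 and 27 listed genes (75.9% and 81.5%, 31.0% and 29.6%) than in the other expressed genes (38.9% and 38.8%, 3.17% and 3.08%). All annotated genes stand at 65.4% and 22.1%.

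None of the 56 genes had the same 6 values as another gene, as copies that share all their reads would. Reads divided unevenly between similar genes would not show in this way, so that single IDs of gene families are uncertain.

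The gene IDs run without a gap in steps of 10, and each listed gene was placed by its rank among them. That the ranks follow the chromosomes was not checked. In 45 bins of 1000 consecutive IDs (the last shorter), 18 bins held no listed gene and 6 held 3 or more. These 6 bins contained 24 of the 56 genes (42.9%) and 13.2% of the tested genes. The bins were chosen by their number of listed genes, so their share of these had to be high. Whether the listed genes cluster was not tested. The fullest bin, from Zm00001eb420010 to Zm00001eb430000, held 6 listed genes, 4 listed only in edf1-D and 2 only in WT. The bin from Zm00001eb180010 to Zm00001eb190000 held 5, with 2 and 3. All 6 bins held genes of both directions.

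The share of genes whose level differed between the genotypes varied among those bins. Over all 18719 tested genes, limma called 681 at an adjusted p under 0.05, which is 3.64%, with 1.45% higher and 2.19% lower in edf1-D. The rule used the same contrast, so nothing is read from the 55 of 56 listed genes that were called, and the exception was Zm00001eb161400. With the listed genes set aside, 7.04% of 2443 tested genes were called in the 6 bins and 2.80% of 16220 in the other 39. With listed genes included, the 6 bins ranged from 3.03% (from Zm00001eb210010) and 3.11% (from Zm00001eb380010), both below the share over all tested genes, to 15.1% in the fullest bin. The bins were chosen for their listed genes, and this difference was not tested.

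**Figure D4:**
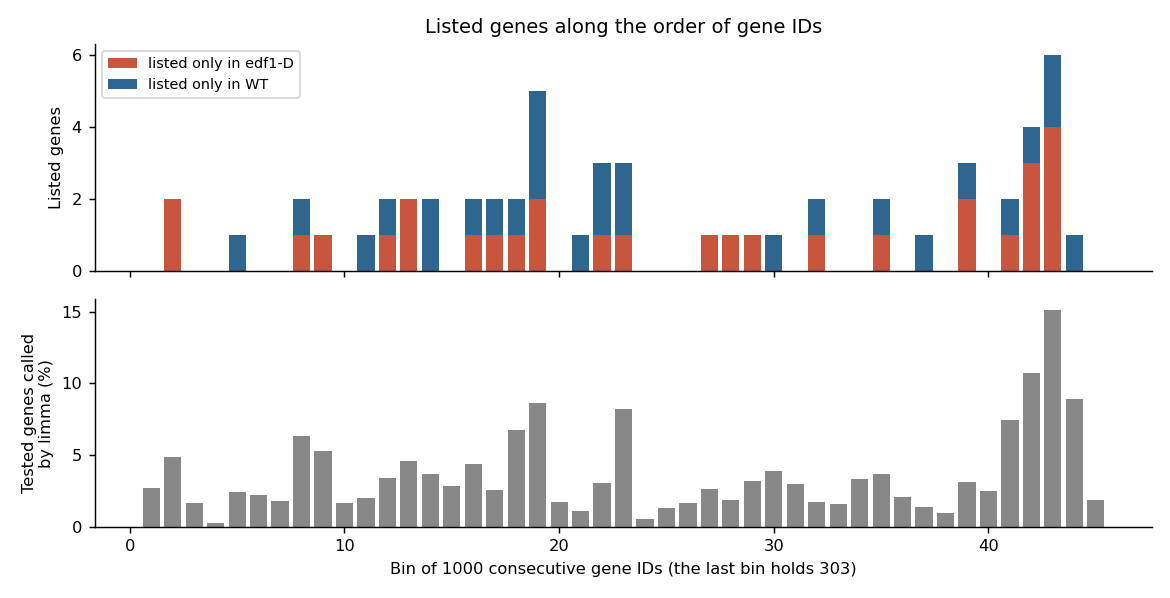
Number of listed genes (top) and percentage of tested genes called by limma (bottom, listed genes included) in 45 bins of 1000 consecutive gene IDs. The fullest bin holds 6 listed genes and has 15.1% of its tested genes called, against 3.64% over all tested genes.

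Listed genes lay nearer to each other than other genes lay to them. The median distance to the nearest other listed gene was 210 IDs, against 322 IDs from the other tested genes to the nearest listed gene. A listed gene within 50 IDs was found for 11 of the 56 (19.6%) and for 11.0% of the other tested genes. Both genes of a pair count among the 11, which are thus not independent, and neither difference was tested. The closest pair was Zm00001eb212950 and Zm00001eb212960, consecutive IDs listed only in WT. Zm00001eb212960 stood at 2.18, 2.75 and 1.40 FPKM, and thus above its neighbour in WT replicates 1 and 2 and below it in replicate 3. The IDs on either side of the pair were listed in both genotypes, with Zm00001eb212970 (named for its place) at 3.98 ± 0.763 FPKM in WT and 3.21 ± 0.836 FPKM in edf1-D (SD, n = 3 each).

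Among the other pairs within 50 IDs, a distance chosen after the values were seen, 3 shared a direction. Zm00001eb428490, at 4.63, 5.98 and 3.74 FPKM, Zm00001eb428630, at 3.09, 2.85 and 1.54 FPKM, and Zm00001eb429000, at 1.23, 1.70 and 1.22 FPKM, were all listed only in edf1-D and lay 14 and 37 IDs apart. Zm00001eb184660 and Zm00001eb184800, the latter at 1.20, 2.14 and 3.04 FPKM, were listed only in WT, 14 IDs apart. In 2 pairs the directions were opposite. Zm00001eb181040 (edf1-D) and Zm00001eb181260 (WT) lay 22 IDs apart, and Zm00001eb410000 (WT) and Zm00001eb410330 (edf1-D, at 1.82, 2.09 and 1.89 FPKM) lay 33 IDs apart.

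The neighbours' own values were not used by the rule and could be tested. Around the 56 genes, the 5 nearest IDs on each side gave 550 genes that were not listed themselves. Of these 32.2% were at 0 in all 6 libraries, against 31.3% of all annotated genes, and 233 were tested. Limma called 19 of the 233 (8.15%), where 3.64% of all tested genes were called. Around genes listed only in edf1-D, 7 of the 8 called neighbours were higher in edf1-D. Around genes listed only in WT, 7 of 11 were lower in edf1-D. Of all 681 calls, 410 were decreases in edf1-D and 271 increases, so that 7 of 11 is near the general split. Neither direction was tested against that split. The count of 19 called neighbours depended on the processing. It fell to 11 without edf1-D replicate 1 or 2 and to 12 without edf1-D replicate 3. The called share of the neighbours was then 4.72%, 4.72% and 5.15%, and that of all tested genes 1.56%, 2.88% and 1.76%. The count rose to 47, 49 and 48 with TPM, median-ratio and quantile scaling, where 11.4%, 11.7% and 11.0% of all genes were called.

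The called share was higher directly beside the listed gene in the edf1-D direction only. Among the IDs directly before and after, 44 were tested and 6 were called (13.6%). In the edf1-D direction these were 4 of 23 (17.4%), against 8 of 120 (6.67%) within 5 IDs. In the WT direction they were 2 of 21 (9.52%), against 11 of 113 (9.73%). The 4 beside genes listed only in edf1-D were all higher in edf1-D, and the 2 beside genes listed only in WT were both lower. Of the 56 listed genes, 4 had such a neighbour at all, 3 listed only in edf1-D and 1 only in WT. The 10 nearest IDs on each side gave 35 called of 442 (7.92%). These shares rest on small counts and were not compared by a test. Whether neighbours share reads with the listed genes was not tested.

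**Figure D5:**
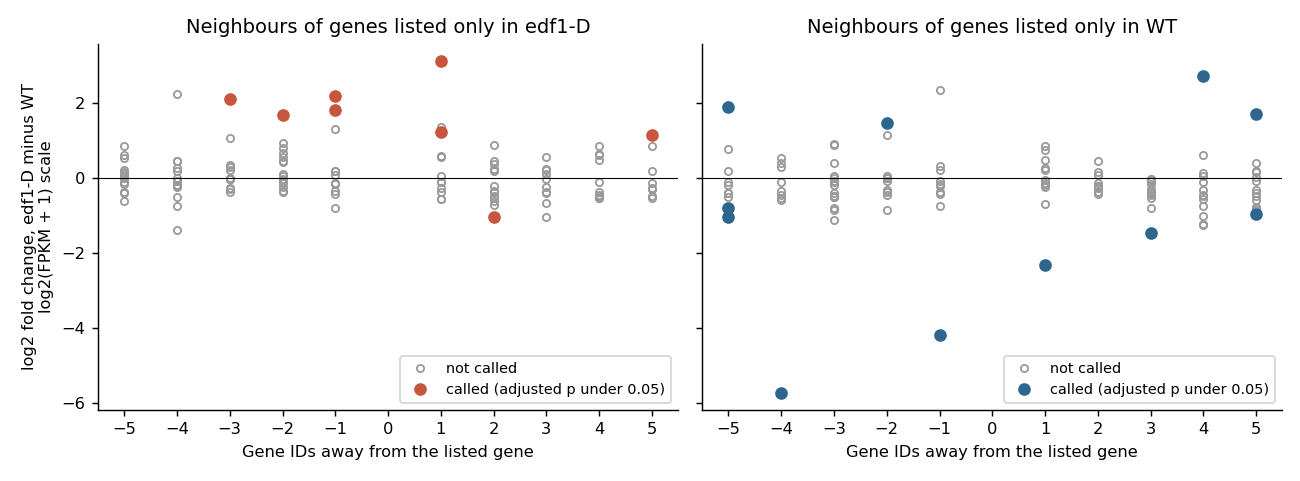
Log2 fold change (edf1-D minus WT, on the log2(FPKM + 1) scale) of tested genes within 5 IDs of genes listed only in edf1-D (left) or only in WT (right), listed genes left out; filled points were called by limma at an adjusted p under 0.05. At a distance of 1 ID the called neighbours lie above 0 on the left and below 0 on the right.

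Several genes higher in edf1-D lay around Zm00001eb161400. The ID directly after it, Zm00001eb161410, was at 115.47, 40.48 and 52.27 FPKM in WT and at 630.33, 587.10 and 460.99 FPKM in edf1-D, without overlap. It was higher in edf1-D by 3.13 ± 0.37 on the log2 scale (SE; adjusted p by limma = 0.004). The ID before, Zm00001eb161390, was at 1.31, 2.33 and 1.14 FPKM in WT and at 11.98, 9.69 and 10.32 FPKM in edf1-D. The difference was 2.19 ± 0.22 on the log2 scale (SE; limma adjusted p = 0.0018). Among further genes of this stretch, chosen after their values were seen, Zm00001eb161370 was likewise higher, by 2.10 ± 0.29 on the log2 scale (SE; limma adjusted p = 0.0074). Zm00001eb161380 between them was under 0.5 FPKM in all libraries and not tested, and Zm00001eb161420 after it was at 11.1 ± 0.695 FPKM in WT and 12.9 ± 0.405 FPKM in edf1-D (SD, n = 3 each; limma adjusted p = 0.54).

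The opposite was seen around Zm00001eb184660, listed only in WT. The ID directly before it, Zm00001eb184650, was at 42.64, 77.39 and 45.11 FPKM in WT and at 2.52, 1.96 and 1.59 FPKM in edf1-D. It fell by 4.17 ± 0.26 on the log2 scale (SE; limma adjusted p = 0.00024). The ID directly after, Zm00001eb184670, given after its values were seen, was at 29.20, 38.88 and 25.18 FPKM in WT and at 7.27, 5.57 and 3.67 FPKM in edf1-D. It fell by 2.32 ± 0.26 on the log2 scale (SE; limma adjusted p = 0.003). These neighbours fell without reaching 0. Further before, Zm00001eb184610, also chosen in that way, rose from 2.54 ± 1.95 to 11.1 ± 3.04 FPKM (SD, n = 3 each; limma adjusted p = 0.049), so that the direction was not shared by the whole stretch.

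Near Zm00001eb184800, also listed only in WT, lay Zm00001eb184760, which fell by 5.73 ± 0.27 on the log2 scale (SE; limma adjusted p = 4.6e-05), from 202.66, 340.25 and 209.47 FPKM to 4.97, 3.52 and 2.65 FPKM. Between them, Zm00001eb184770 and Zm00001eb184780 were at 0 in all 6 libraries, while Zm00001eb184790 was at 9.39, 0.55 and 6.5 FPKM in WT and 4.01, 0 and 4.12 FPKM in edf1-D, with overlap (limma adjusted p = 0.67). Zm00001eb161410, Zm00001eb161390, Zm00001eb184650 and Zm00001eb184760 passed the threshold in all 12 other fits, with adjusted p of at most 0.023.

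Further genes beside a listed one are given here although chosen after their values were seen. Zm00001eb220940, directly before Zm00001eb220950, was higher in edf1-D, at 178.7 ± 19.7 FPKM against 51.4 ± 16.0 FPKM in WT (SD, n = 3 each; limma adjusted p = 0.0071). Zm00001eb159130, directly after Zm00001eb159120, was itself at 0 throughout WT and just under the minimum in edf1-D. Zm00001eb118590, directly after Zm00001eb118580, was also at 0 throughout WT, and at 0.54, 3.0 and 1.77 FPKM in edf1-D. Beside Zm00001eb159120 and Zm00001eb118580, though not beside Zm00001eb220950, these consecutive IDs were thus at 0 in WT together.

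Beside Zm00001eb438650, which was listed only in WT at 3.28, 7.65 and 3.29 FPKM, the pattern was reversed. Zm00001eb438640, the ID before it, was at 3.32, 0 and 0 FPKM in WT and at 5.86, 11.03 and 6.04 FPKM in edf1-D, and did not pass the threshold (limma adjusted p = 0.063). Around Zm00001eb295330, listed only in WT at 1.63, 2.03 and 1.28 FPKM, both called neighbours were higher in edf1-D. One of them, Zm00001eb295370, was at 1.62, 2.15 and 1.49 FPKM in WT and at 18.93, 16.56 and 15.81 FPKM in edf1-D (limma adjusted p = 0.00027).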

How the data were processed

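RNA sequencing libraries of 3 WT and 3 edf1-D leaf samples were analysed. Per the submitters' processing notes, the tools were Trimmomatic 0.36, HISAT2, RSEM and DESeq2, whose roles and order were not stated there. Which build was used is not given in the sources. The authors deposited 1 value per transcript and library for 77341 transcripts. Neither headers nor labels name the unit, and the values the authors deposited were taken as FPKM because they have 2 decimals and their sums differ between libraries (416517 to 686251). The depth is unknown.

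Values were summed to 44303 genes. The 18719 genes that reached 0.5 FPKM in 3 or more libraries were tested with limma 3.58.1 (R 4.3.3, intensity trend, no covariate) on log2(FPKM + 1), two-sided, with Benjamini-Hochberg adjustment over all tested genes. This scale understates changes of low genes. All 56 listed genes pass this filter, through the genotype that lists them. The code of the rule was run on planted values and that of the fit on simulated ones. The run of the rule could only return what was planted, and neither run bears on the results above. The members, lists and tests were chosen with earlier results of these data known. Named in the text are, in each direction, the 8 genes of highest mean, genes with 3 or more transcripts or a listed gene within 5 IDs, those just inside and outside the thresholds, and the 2 called neighbours of largest change. All other genes, among them listed genes paired within 50 IDs and further neighbours, were named after their values were seen.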

Additional observations from a re-analysis of the deposited data

How the results depend on the processing

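Genes listed only in edf1-D, 29 as reported, were 47 with a minimum of 0.5 FPKM, 13 with 2 FPKM and 45 with TPM; those listed only in WT, 27 as reported, were 45, 14 and 38. The wider of these settings held all reported genes. Leaving out 1 library gave 33 to 43 and 34 to 42 genes. The 681 called genes were 418 without a filter, 2130 with TPM, 2185 with median-ratio scaling and 2054 with quantile normalization, and 292 to 545 with 1 library left out (367 without WT replicate 2, 292 without edf1-D replicate 1, 329 without edf1-D replicate 3). The 19 called neighbours were 47, 49 and 48 under these scalings, 11 to 16 with 1 library left out, and 6 and 35 with 1 and 10 IDs on each side. In all 12 fits their called share exceeded that of all genes, by 1.64 to 3.06 times. Between 51 and 56 listed genes were called in these fits. For none of them was the cause tested. Replicate numbers were not taken as pairs. Deviations from the group means of same-numbered libraries correlated at -0.19, -0.01 and 0.35 across genes. Such a correlation cannot show a shift shared by all genes, so it does not settle whether the replicates were paired. In both genotypes replicate 2 was most often the highest library and replicate 3 the lowest. With the replicate block there were 951 called genes, 23 called neighbours and 54 called listed genes. The unknown depth limits every value listed at 0.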
